A study of Mus musculus with 3 samples.

Results

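The collagen genes of mouse preosteoblasts were compared across 3 culture media. Collagen genes were taken as all genes whose single symbol in the array annotation reads Col, a number, a and a number. They made up 42 of the 18193 genes with a named probe set and 82 of the 45037 probe sets. By the form of the protein they were 11 fibrillar, 9 network, 9 FACIT (fibril-associated with interrupted triple helices), 5 beaded, 4 transmembrane and 2 multiplexin genes, with 2 others. Each gene was read from its probe set with the highest mean over the arrays.

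The cells were MC3T3-E1, an established line of preosteoblasts from the calvaria, the flat bone of the skull, with C57BL/6 given as the strain. All were kept for 3 days at 37 °C in MEM α with 10% fetal bovine serum. Normal medium held nothing further. To make osteogenic medium, beta-glycerophosphate was added at 10 mM, with ascorbic acid 2-phosphate at 150 µM. A further culture in osteogenic medium received 0.6% dimethyl sulfoxide (DMSO), a solvent. Each condition was read on 1 Affymetrix Mouse Genome 430 2.0 array. There was no replicate, so no difference has a test or a p-value, and precision is limited by the number of arrays.

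Collagens are secreted proteins in which chains rich in glycine and proline wind into a triple helix. Fibrillar collagens form the rope-like fibrils of bone, skin and cartilage, network collagens form sheets such as those of basement membranes, and FACIT collagens sit on the surface of fibrils. Beaded collagens form thin microfibrils around cells, transmembrane collagens span the cell membrane, and multiplexins lie at basement membranes and carry sugar chains. In bone, type I fibrils are the scaffold on which mineral is laid down. Ascorbate, the active part of ascorbic acid 2-phosphate, is the cofactor of the enzymes that hydroxylate the proline of collagen chains.

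All values are log2 signals as deposited, and a change is the log2 difference between 2 arrays. Probe sets differ in their brightness, so levels were compared between arrays and not between genes. The floor for a readable signal was 3.54, the 50th percentile over all arrays together. Of the 42 collagen genes, 30 were above it on all 3 arrays, 0 on some arrays and 12 on none. A gene is said to have risen or fallen when it differed at least 1.5-fold, which is 0.58 on the log2 scale. The arrays had like upper quartiles (6.23 to 6.27), and their values were coarse, with 12667 to 14720 distinct values. Exactly equal values on 2 arrays were therefore frequent, and they draw medians towards 0.

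The 12 collagen genes below the floor on every array were Col4a3, Col4a4, Col10a1, Col9a2, Col14a1, Col19a1, Col6a4, Col6a5, Col13a1, Col17a1, Col23a1 and Col26a1. Col10a1, the network collagen of hypertrophic cartilage, stood at 2.54 on each array. Col4a3 and Col4a4, chains of the basement membrane of the kidney and lung, were at 2.28 to 2.35 and at 1.75. Of the 4 transmembrane genes only Col25a1 was above the floor, with 4.48 on all arrays. Its other probe set was below the floor, at 1.38 on all arrays. Below the floor a change cannot be read.

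The labelled cell type was checked on marker genes. Of the osteoblast markers with a named probe set, Sp7, Alpl, Ibsp and Ifitm5 were all above the floor on all arrays. The log2 of their summed signal was 8.84 in normal medium, 10.74 in osteogenic medium and 11.23 with DMSO. Each of these 4 was higher in osteogenic than in normal medium, and higher again with DMSO. Runx2, Bglap and Spp1 were not analysed here. The adipocyte markers Adipoq, Fabp4 and Lpl and the endothelial markers Pecam1, Cdh5 and Tek were below the floor on every array. Of 5 macrophage and osteoclast markers, Ptprc, Cd68 and Acp5 were below it, while Csf1r (4.66, 4.41 and 4.41 in normal, osteogenic and DMSO medium) and the protease gene Ctsk (9.35, 9.46 and 9.29) were above it on all arrays. Of 4 epithelial markers, Epcam, Krt8 and Cdh1 were above it and Krt18 below, and all 3 tendon markers, Scx, Tnmd and Mkx, were above it. In extracts of whole cultures, fewer cells of a type and less RNA per cell cannot be told apart.

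The main collagen chains of bone were nearly level over the 3 media. Col1a1, which encodes the alpha chain present in double dose in type I collagen, had log2 signals of 12.28 in normal medium, 12.32 in osteogenic medium and 12.50 when DMSO was added. Values of a gene are given in this order of media throughout. Its partner Col1a2 had 13.30, 13.34 and 13.34. The array of osteogenic medium with DMSO was highest for Col1a1, by 0.18 over osteogenic medium without it. The highest signal of any probe set on the arrays was 13.39 to 13.40, so Col1a2 was read at the top of the scale, where a further rise could be compressed.

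Other probe sets of both genes were compared. The second probe set of Col1a1 read 9.67, 9.75 and 9.74, a difference of -0.0068 with DMSO where the first gave 0.18. The second of Col1a2 read 12.85, 12.93 and 12.97. Its dimmest probe set read 6.26, 6.75 and 6.30, higher by 0.49 in osteogenic medium and at -0.45 with DMSO. For type I collagen the probe sets thus gave differences between -0.45 and 0.49, none of them 1.5-fold.

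Col3a1, the chain of type III collagen of soft tissue and young matrix, read 12.51, 12.65 and 12.56. A second probe set of Col3a1 read 9.43, 9.75 and 9.32, a difference of -0.43 with DMSO against -0.09 for the first. Type V collagen nucleates type I fibrils and limits their diameter. Its chain gene Col5a2 read 12.02, 12.07 and 11.99, and Col5a1 read 10.28, 10.00 and 10.16. Other probe sets of Col5a1 differed by 0.11 and 0.00 in osteogenic medium where the first gave -0.29. No difference of these 3 genes reached 1.5-fold in any comparison.

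The promoter of Col1a2 is shown as that of the abundant bone collagen with a table entry. It is the 250 bases before the transcription start, chr6:4505368-4505617 on the plus strand, from RefSeq (GRCm38.p6), 5′ to 3′, with CCAAT and GGGCGG boxes of either strand in capitals.
Col1a2: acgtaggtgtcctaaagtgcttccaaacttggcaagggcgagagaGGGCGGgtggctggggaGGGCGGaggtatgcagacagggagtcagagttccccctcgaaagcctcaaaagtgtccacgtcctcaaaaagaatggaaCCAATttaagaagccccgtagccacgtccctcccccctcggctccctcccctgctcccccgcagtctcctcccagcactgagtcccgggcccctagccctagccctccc
The CCAAT box, bound by the factor NF-Y, begins 109 bases before the start. The GGGCGG boxes, a core motif of Sp1-type zinc finger factors, begin 205 and 188 bases before it.

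**Figure D1:**
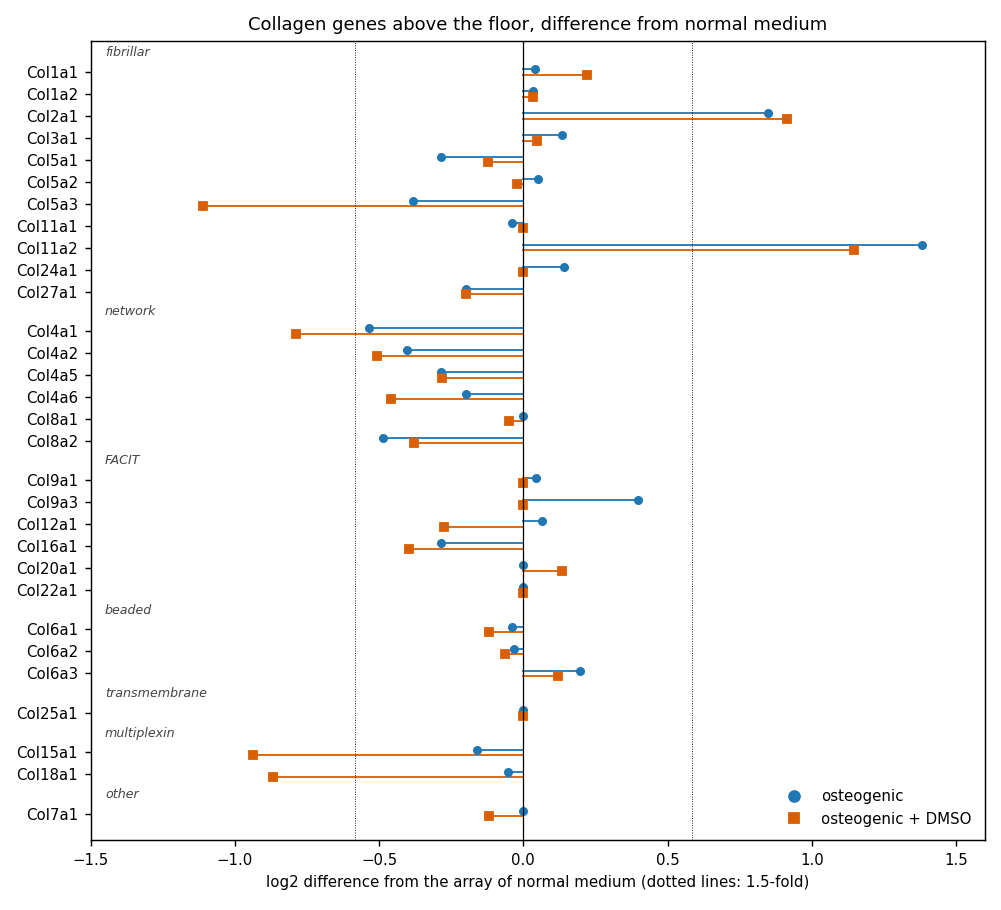
Log2 difference of each of the 30 collagen genes above the floor from the array of normal medium, for osteogenic medium (circles) and osteogenic medium with DMSO (squares), 1 array each, grouped by class, with dotted lines at 1.5-fold. Col2a1 and Col11a2 lie to the right of the upper line in both media, and Col5a3, Col4a1, Col15a1 and Col18a1 pass the lower line only as squares.

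The first question was which collagens differed between osteogenic and normal medium. Col11a2, a chain of type XI collagen, and Col2a1, the chain of type II collagen, both fibrillar collagens known from cartilage, rose. Of the 30 genes above the floor these 2 rose and 0 fell at least 1.5-fold, which is 6.67% of them. Among all 11417 genes above the floor, 3.36% changed that much, 1.75% upwards and 1.61% downwards. At 2-fold, 1 of the 30 collagen genes rose, Col11a2, against 0.657% of all genes, 0.473% upwards and 0.184% downwards.

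Col11a2 had log2 signals of 4.16 in normal medium, 5.54 in osteogenic medium and 5.31 with DMSO added. The normal medium array was low and both osteogenic arrays were high. The rise in osteogenic medium was 1.38, or 2.61-fold, and with DMSO it stood 2.21-fold above normal medium. The signal of 4.16 is close to the floor. Col2a1 read 7.16, 8.01 and 8.08. It too was low in normal medium and high on both osteogenic arrays, with a rise of 0.85, or 1.80-fold, and 1.88-fold with DMSO. Each of these genes had 1 probe set, so no second reading exists.

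Other chains that assemble with these did not show such a difference. Col11a1, which joins Col11a2 in type XI collagen, read 8.28, 8.24 and 8.28, and its second probe set read 8.28, 8.05 and 8.05. The gene Col9a1 of type IX collagen, a FACIT collagen on cartilage fibrils, read 4.68, 4.72 and 4.68. Col9a3 read 3.97, 4.36 and 3.97, higher by 0.40 on the array of osteogenic medium alone, and Col9a2 was below the floor. Among 7 chondrocyte markers, 3 were above the floor: Sox9 (7.52, 7.52 and 7.42), Matn3 (4.14, 4.81 and 4.97) and Cnmd (8.68, 8.77 and 6.65). Acan, Matn1, Hapln1 and Comp, from the same list, were below it on all arrays. Of the 3 above it, Matn3 rose by 0.67 in osteogenic medium. The log2 of the summed signal of the 7 markers, with values under the floor counted at it, was 9.36, 9.44 and 8.45. With DMSO, Cnmd differed by -2.12, Sox9 by -0.10 and Matn3 by 0.16, so the lower sum came mainly from Cnmd.

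The network collagens were lower in osteogenic than in normal medium. Of 6 genes above the floor, 5 were lower, 1 was equal and 0 were higher, with a median of -0.34. Over all 11257 genes above the floor on both arrays, 38.7% were lower, 25.2% were equal and the median was 0.00. None of the 6 reached 1.5-fold in this comparison. The median remained below 0 under each alternative and lay between -0.34 and -0.0045. The last came from second probe sets, which Col4a1, Col4a5, Col4a6 and Col8a1 had above the floor. These gave differences of -0.25, 0.00, 0.00 and -0.0090, where the probe sets used gave -0.53, -0.28, -0.20 and 0.00. The size of the median thus depends on the probe set read.

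Type IV collagen is the main sheet-forming protein of basement membranes. Its common chain gene Col4a1 read 9.37, 8.84 and 8.58, and Col4a2 read 8.90, 8.50 and 8.40. Both were highest in normal medium and lowest with DMSO. Col4a1 was lower by 0.53 in osteogenic medium and by 0.79, a 1.72-fold fall, in osteogenic medium with DMSO. Col4a2 differed by -0.40 and -0.51 from normal medium. A second probe set of Col4a1 read 7.83, 7.58 and 7.14, in the same order.

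The less common type IV chains were lower too. Col4a5 read 8.17, 7.89 and 7.89, and Col4a6 read 6.30, 6.11 and 5.85. Their other probe sets differed less, reading 5.71, 5.71 and 5.75 for Col4a5 and 5.65, 5.65 and 5.59 for Col4a6. Type VIII collagen forms hexagonal sheets from chains of the genes Col8a1 and Col8a2. Col8a2 read 10.35, 9.86 and 9.97, a difference of -0.49 in osteogenic medium, while Col8a1 read 10.34, 10.34 and 10.29. Of this pair, Col8a2 was high in normal medium alone and Col8a1 was nearly level.

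Col4a1 and Col4a2 lie head to head on chromosome 8, and in RefSeq (GRCm38.p6) their start sites are at 11312826 on the minus strand and 11312805 on the plus strand. The transcripts thus overlap by 22 bases at their starts. The CCAAT box beside the start of Col4a2 is shown because the pair was lower together in the media compared. It lies in chr8:11312768-11312797, plus strand, 5′ to 3′, with the box in capitals.
Col4a2: gctccCCAATttgttggcgctgccccctcc
The box begins 32 bases before the start of Col4a2, inside the region that Col4a1 transcripts cover on the other strand.
The promoter of Col8a2, whose partner Col8a1 did not differ as much, is the 250 bases at chr4:126286544-126286793, plus strand, with GGGCGG boxes of either strand in capitals.
Col8a2: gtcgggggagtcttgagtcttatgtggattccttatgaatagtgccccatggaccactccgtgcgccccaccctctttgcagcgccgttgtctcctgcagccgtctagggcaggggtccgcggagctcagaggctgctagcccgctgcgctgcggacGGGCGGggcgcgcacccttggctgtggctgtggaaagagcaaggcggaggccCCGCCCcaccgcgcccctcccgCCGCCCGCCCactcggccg
It holds 4 such boxes, beginning 93, 41, 19 and 15 bases before the start, the last pair overlapping, and no CCAAT. The 300-base window of Col8a1 also holds 4 GGGCGG boxes and no CCAAT, so these counts do not set the partners apart.

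**Figure D2:**
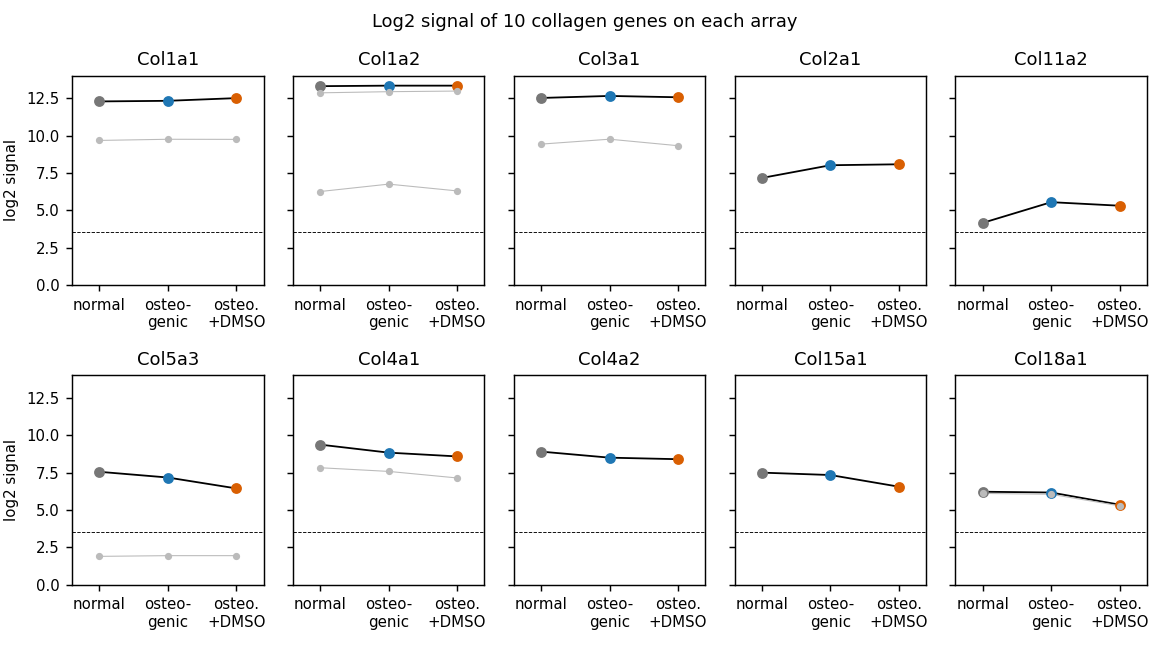
Log2 signal (vertical axis) of 10 collagen genes on the array of each medium, with the probe set used in colour, other probe sets in grey and the floor of 3.54 as a dashed line. Col1a1, Col1a2 and Col3a1 are nearly level, Col2a1 and Col11a2 are low in normal medium, and Col15a1 and Col18a1 are low only with DMSO.

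The second question was what DMSO changed within osteogenic medium. Col15a1 and Col18a1, the multiplexin genes of basement membrane zones, and Col5a3, a minor chain of type V collagen, fell. Of the 30 genes above the floor, 3 fell and 0 rose at least 1.5-fold, or 10.0% of them. Among all 11423 genes above the floor, 2.47% changed that much, 0.35% upwards and 2.12% downwards. Of the 30, 0 changed 2-fold, against 0.604% of all genes, 0.0525% upwards and 0.552% downwards.

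Col18a1, whose protein releases the fragment endostatin, had log2 signals of 6.22, 6.17 and 5.36. The arrays without DMSO were alike and the array with DMSO was low, a fall of 0.81 or 1.76-fold. The second probe set of Col18a1 read 6.11, 6.05 and 5.28, a fall of 0.77. Col15a1 read 7.50, 7.34 and 6.56, a fall of 0.78 or 1.71-fold with DMSO, from 1 probe set. Against normal medium the array with DMSO was 1.82-fold lower for Col18a1 and 1.92-fold lower for Col15a1.

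Col5a3 read 7.55, 7.17 and 6.44. It was highest in normal medium and lowest with DMSO, where it fell by 0.73 or 1.66-fold. Against normal medium the fall was 2.16-fold. Its other probe set was below the floor, at 1.90 to 1.95, and averaging the 2 probe sets left differences of -0.36 from osteogenic and -0.53 from normal medium, which miss 1.5-fold. Col5a1 and Col5a2, the major type V chains, differed by 0.16 and -0.07 with DMSO.

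Col18a1 has a promoter in the table that lies outside any other annotated gene, and it is shown as that of the collagen with the largest fall with DMSO. It is chr10:77166531-77166780 on the minus strand, the 250 bases before the more upstream of its start sites, with CCAAT and GGGCGG boxes of either strand in capitals.
Col18a1: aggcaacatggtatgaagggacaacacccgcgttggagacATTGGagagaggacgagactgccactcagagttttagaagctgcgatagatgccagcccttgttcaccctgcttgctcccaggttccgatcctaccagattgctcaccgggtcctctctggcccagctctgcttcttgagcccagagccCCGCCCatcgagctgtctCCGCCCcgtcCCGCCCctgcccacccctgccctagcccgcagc
Its 3 GGGCGG boxes, all on the other strand, begin 61, 43 and 33 bases before the start. A CCAAT box on the other strand begins 210 bases before it. Promoters of Col1a1, Col2a1 and Col5a2 are not used here.

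Most other collagen genes were slightly lower with DMSO. Of the 30, 19 were lower, 4 were equal and 7 were higher, with a median of -0.07. Over all 11261 genes above the floor on both arrays, 29.9% were lower, 40.5% were higher and the median was 0.00. The share of collagen genes that were lower was 63.3%. With cyclic loess normalization, which breaks the ties, 80.0% of collagen genes and 56.7% of all genes were lower. The collagen median was below 0 under each alternative, from -0.02 to -0.10, a size under the scatter between probe sets of a gene.

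**Figure D3:**
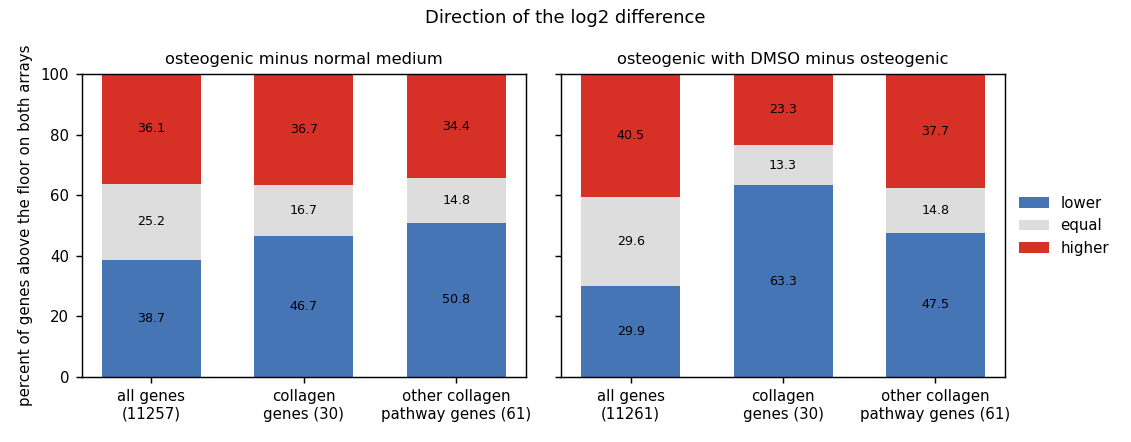
Percent of genes above the floor on both arrays whose log2 difference was lower, equal or higher, for all genes, collagen genes and the other collagen pathway genes, in both main comparisons. With DMSO 63.3% of collagen genes and 29.9% of all genes were lower, while in osteogenic against normal medium the shares were 46.7% and 38.7%.

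Among FACIT collagens, Col12a1, which decorates type I fibrils in dense tissue, read 10.56, 10.63 and 10.29, lower by 0.34 with DMSO. Its second bright probe set read 8.11, 8.11 and 8.03. Col16a1, another collagen of fibril surfaces, read 8.39, 8.11 and 8.00. Col20a1 (3.77, 3.77 and 3.90) and Col22a1 (3.66 on each array) were just above the floor. Further probe sets of Col12a1, Col20a1, Col9a1 and Col9a3 that differed from these by over 0.3 in a change were below it. So were the other probe sets of Col22a1, at 2.34 and 1.75 on each array. The FACIT median over 6 genes was 0.02 in osteogenic medium and -0.08 with DMSO.

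The beaded collagens differed little. Type VI collagen is built from the chains of Col6a1, Col6a2 and Col6a3. Col6a1 read 11.14, 11.09 and 11.02, Col6a2 read 11.88, 11.85 and 11.81, and Col6a3 read 11.96, 12.16 and 12.09. Their largest difference was 0.20, for Col6a3 in osteogenic medium. With DMSO the 3 genes differed by -0.08, -0.03 and -0.08.

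The remaining genes did not reach 1.5-fold in any comparison. Col27a1, a fibrillar collagen of cartilage, read 6.77, 6.57 and 6.57. Its second probe set read 6.50, 6.17 and 6.28, a difference of -0.33 in osteogenic medium where the first gave -0.20. Col24a1, a fibrillar collagen known from developing bone, read 4.13, 4.27 and 4.13. Col7a1, the collagen of anchoring fibrils, read 4.58, 4.58 and 4.46. Over the 11 fibrillar genes the median was 0.04 in osteogenic medium and 0.00 with DMSO, so the class held both the rises and the fall of Col5a3 around a centre near 0.

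Osteogenic medium with DMSO was also set against normal medium. This comparison is the sum of the other 2 and shares arrays with both. In it 2 collagen genes rose (Col2a1 and Col11a2) and 4 fell (Col5a3, Col4a1, Col15a1 and Col18a1) at least 1.5-fold, or 20.0% of the 30. Among all genes 6.79% did, 2.59% upwards and 4.19% downwards. At 2-fold, Col11a2 rose and Col5a3 fell, against 1.94% of all genes, 0.604% upwards and 1.34% downwards. All 6 network genes above the floor were lower, with a median of -0.42, while 35.6% of all genes were lower and their median was 0.00.

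The only repeat measurement was the agreement between probe sets of a gene, which leaves out the spread between cultures. Pairs were the 2 brightest probe sets of a gene, both above the floor. Over 5180 such genes, the SD of the difference between the 2 changes was 0.18 for osteogenic against normal medium and 0.15 for DMSO. For 15 collagen genes with such a pair, the median size of that difference was 0.13 and 0.12. A median size and an SD are unlike measures, so these values do not rank collagen genes against all genes. Among these pairs it was largest for Col5a1 (0.39) in the first comparison and for Col3a1 (0.34) in the second. The dimmest probe set of Col1a2, left out of these pairs, differed from the one used by 0.46 and -0.45. The signs were opposite in 3 and 1 of the 15 genes.

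**Figure D4:**
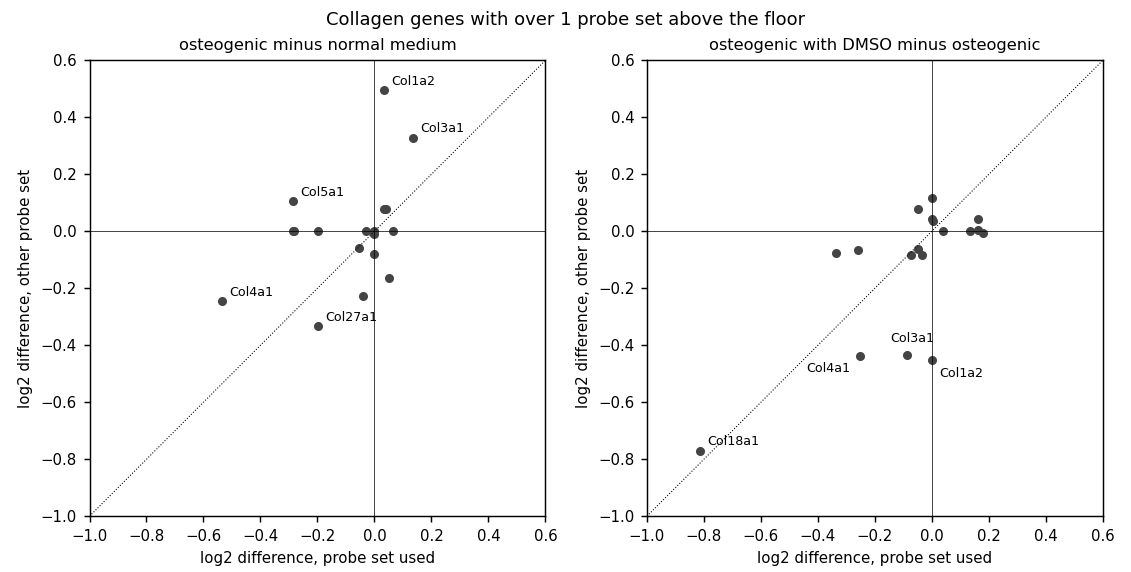
Log2 difference in the probe set used (horizontal axis) and in each other probe set above the floor of the same collagen gene (vertical axis), for both main comparisons, with the line of equality dotted. Col18a1 lies near that line at -0.81 and -0.77 with DMSO, while the dim probe set of Col1a2 lies away from it at 0.49 and -0.45.

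The endothelial markers were measured beside the fall of basement membrane genes. Pecam1, Cdh5 and Tek were below the floor on all arrays, and Kdr was above it only in normal medium, at 3.66. The log2 of the summed signal of the 4 genes, with values under the floor counted at it, was 5.54 to 5.57. Smooth muscle markers had summed signals of 13.06, 13.06 and 12.93, led by Acta2 and Tagln, with Myh11 below the floor. All 3 tendon markers were lower with DMSO than in osteogenic medium alone, Tnmd at -0.86, Mkx at -0.30 and Scx at -0.25. The log2 of their summed signal was 6.99, 7.06 and 6.67. The epithelial marker Cdh1 read 3.87, 4.87 and 3.55, and its list of 4 had summed signals of 5.94, 6.23 and 5.82. The part of any of these in the falls was not tested.

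Other genes of the collagen pathway were taken from a list of 78 genes that fold, export, crosslink, organise, bind or cleave collagen or act on its genes. Of these, 72 had a named probe set and 61 were above the floor. In osteogenic against normal medium 1 rose and 4 fell at least 1.5-fold, and with DMSO 0 rose and 3 fell. These are 8.20% and 4.92% of the 61, against 3.36% and 2.47% of all genes. Their median changes were -0.0050 and 0.00. With DMSO 47.5% were lower, a share between that of all genes and that of the collagen genes.

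Among the 18 folding and modification genes above the floor, P3h2, a prolyl hydroxylase known to act on type IV collagen, read 7.31, 6.60 and 5.49. It fell by 0.71 in osteogenic medium and by 1.11 with DMSO. The chaperone gene Serpinh1 read 11.87, 11.88 and 11.88, and the prolyl hydroxylase subunit P4ha1 read 8.59, 8.58 and 8.65. P4ha3, another such subunit, fell by 0.73 from normal medium to osteogenic medium with DMSO. Of the 7 export and cleavage genes and the 4 crosslinking genes above the floor, 0 changed in the main comparisons, with Lox at 10.36, 10.28 and 10.08.

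Of 8 fibril organisers above the floor, 7 were lower in each main comparison, where 38.7% and 29.9% of all genes were lower. Ogn, a small leucine-rich proteoglycan, read 11.76, 10.91 and 10.46 and fell by 0.86 in osteogenic medium. Lum, another, read 11.77, 12.06 and 11.37 and fell by 0.69 with DMSO. The medians of this list were -0.16 and -0.37, against 0.00 over all genes in both. Against normal medium, Ogn, Dcn (-0.61) and Postn (-0.59) fell in osteogenic medium with DMSO.

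Of the 6 collagen receptors above the floor, Itga1, an integrin subunit that binds type IV collagen, fell by 0.59 in osteogenic medium and stood at 0.29 with DMSO. Ddr2, a kinase receptor for fibrillar collagen, read 8.54, 8.51 and 8.49. Mmp13, a collagenase that cuts fibrillar collagen, read 7.72, 6.32 and 4.69 and fell in both comparisons. Among the 14 transcription factors above the floor, Sp7 rose by 0.88 in osteogenic medium. Scx, a factor of tendon that acts on Col1a1, fell by 0.79 from normal medium to osteogenic medium with DMSO. Sox9, the cartilage factor that acts on Col2a1 and Col11a2, stayed between 7.42 and 7.52. From the same list, Sox5 was at 3.77 on each array and Sox6 read 7.44, 7.09 and 7.64. The NF-Y subunits Nfyb and Nfyc had equal values on the 3 arrays, while Nfya read 6.97, 6.97 and 7.12.

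The promoters of the collagen genes were searched for short motifs on both strands. The table held windows of 300 bases, from 250 before to 50 after a start, for 33 of the 42 genes, with 36 windows in all. No motif searched contains another, though matches can share bases at their ends. CCAAT was in 13 of the 36 windows (36.1%) and in 37.4% of all 32851 windows. GGGCGG was in 22 (61.1%), against 35.7% of all. TATAAA was in 5 (13.9%), against 13.6%, and TGTGGT, the core motif of RUNX factors, in 3 (8.33%), against 16.8%. A match of letters is a description and no evidence of binding.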

How the data were processed

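The authors deposited log2 signals for 3 arrays. The log2 scale was read from the values, while the summarisation and normalization method is not stated in the labels or file. Per the labels' protocols, cRNA was made from 500 ng of total RNA with a 3' IVT kit. The 64 Affymetrix control probe sets were left out.

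Probe sets were named with the platform annotation of 2016. Of 45037, 34945 had 1 symbol, 932 several and 9160 none, and only those with 1 symbol were used. Lower values were raised to the floor before differences were taken, and medians were taken over genes above the floor on both arrays. All collagen genes above the floor were named, and from each pathway list the genes that changed at least 1.5-fold, at most 4 per comparison. Some further list members were named after their values were seen. The members and lists were chosen with earlier results of these data known. Motif matches and sequences came from RefSeq windows of GRCm38.p6.

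Alternatives were floors at the 40th and 60th percentile and none, the mean and the second probe set of a gene, a median shift, quantile and cyclic loess normalization, leaving out _x_at and _s_at probe sets, and leaving out equal values. Python 3.11.15, numpy 2.4.6, pandas 2.3.3, matplotlib 3.10.9, R 4.3.3 and limma 3.58.1 were used. On simulated data for osteogenic against normal medium, 18193 genes were run. All 100 genes changed by 1.5 on the log2 scale, 2 of 100 changed by 0.3 and 0 of 17993 unchanged genes were counted. The noise was set in the simulation and held no spread between cultures. These counts check the code and give no rate of false calls in the data.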

Additional observations from a re-analysis of the deposited data

How the results depend on the processing

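No paired analysis was possible because each condition has 1 array. Of 186 values of counts and medians under alternatives, 175 stayed within bounds. The bound was 1.5 times for counts and the scatter per probe set for medians (SD 0.13, 0.11 and 0.16 in the 3 comparisons). All medians but those of the network class against normal medium were smaller than this scatter, so staying within it says little for them. The second probe set, which 15 collagen genes had above the floor, gave 0 genes at 1.5-fold and 0 at 2-fold for osteogenic against normal medium. It gave 1 at 1.5-fold with DMSO, and 2 at 1.5-fold and 0 at 2-fold for osteogenic medium with DMSO against normal medium. Col2a1, Col11a2 and Col15a1 have no second probe set. The network median with it was -0.0045 in osteogenic medium and -0.069 in osteogenic medium with DMSO against normal medium. Without a floor, the network median in osteogenic medium was -0.20. At 2-fold, osteogenic medium with DMSO against normal medium gave 1 gene with the floor at the 60th percentile and 1 with the mean of all probe sets. The FACIT median there was -0.27 with the floor at the 60th percentile. Of 738 values for single genes, 700 were kept, 36 moved past the scatter without a call and 2 lost their call, both of Col5a3 with the mean of all probe sets. No alternative turned the direction of a gene that rose or fell. Of these genes, only Col4a1 and Col18a1 had a second probe set above the floor, so for the others this says little. Genes near the floor, such as Col11a2 in normal medium, are limited by their signal over background.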
